A study of Homo sapiens with 12 samples.

Results

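The clustered protocadherin genes lie side by side on the long arm of chromosome 5 and fall into the α, β and γ subclusters. Members were the GENCODE genes whose symbol begins with PCDHA, PCDHB or PCDHG, and the SMC1 and CTCF peaks whose summit lies in the 850 kb of chromosome 5 from 140.1 to 140.95 Mb (hg19). The window holds 60 such genes, of which 53 are coding genes with a variable exon of their own (15 α, 16 β and 22 γ), 6 are pseudogenes and 1 is an antisense transcript. Of the 267921 peaks in the 12 lists of the series, 267 had their summit in the window. One further CTCF peak of each list reached over the left edge with its summit outside and was left out.

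The lists came from chromatin immunoprecipitation sequencing (ChIP-seq) in HAP1, an established near-haploid human line derived from a chronic myeloid leukaemia. Cohesin was precipitated through its core subunit SMC1, the zinc-finger protein CTCF with its own antibody, and unspecific IgG served as the control. The 4 genotypes were wild-type cells, ΔWAPL cells (clone 3.3, without the factor that releases cohesin from DNA), ΔSCC4 cells (without SCC4, a partner of SCC2 in loading cohesin onto DNA), and ΔWAPL/ΔSCC4 cells, hereafter double-mutant cells, obtained by deleting SCC4 in the ΔWAPL cells. ΔWAPL carried a blasticidin cassette and ΔSCC4 a puromycin cassette in the targeted gene, the double-mutant cells descend from a ΔWAPL line, and the files hold no measure of WAPL, of SCC4 or of RNA. Each genotype and antibody had 1 library, so no test between genotypes was possible and the intervals given cover counting error only.

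In neurons the clustered protocadherins are cell adhesion proteins of which each cell uses a few. Every α or γ variable exon has a promoter of its own and is spliced to 3 constant exons shared by the subcluster, whereas a β gene is a single exon. CTCF binds most of the variable promoters, and in the α cluster also the variable exons, and loops held by cohesin join these promoters to enhancers that lie downstream of the genes, as known from neural cells and other lines. The enhancer known as HS5-1 lies between the α constant exons and the β genes, and the enhancers for β and γ lie downstream of the γ genes.

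The sequences under the peaks show the layout of the locus. A 19-bp CTCF motif was learned from the 1000 strongest wild-type CTCF peaks of other chromosomes, and its consensus was TGGCCACCAGGGGGCGCCG. A match was called in the 200 bp around a summit, on either strand, above a score that 5.00% of flanking windows passed. The matches below are examples from the promoters of each subcluster, the α variable exons and the distal sites, to which the results refer. That of PCDHGA11 is not typical of γ, since it is the only match among 14 γ promoter regions. Each is written 5′ to 3′ on the strand of the match, with capitals where the letter equals the consensus.

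PCDHA2 promoter (chr5:140174368-140174386, plus strand): TaGCCACatGatGtCGCtG
PCDHA3 promoter (chr5:140180581-140180599, plus strand): TaGCCACatGatGtCGCtG
PCDHAC1 promoter (chr5:140306194-140306212, plus strand): gcaCCcCtAGGcGGCGCtG
PCDHB10 promoter (chr5:140571874-140571892, plus strand): aGGCCACacGGtGGCGCtG
PCDHGA11 promoter (chr5:140800541-140800559, plus strand): TGGgCtCtAGGcGcCGCtG
PCDHA5 variable exon (chr5:140201811-140201829, plus strand): TttCCgCtAGaGGGCGCgt
α–β site, right (chr5:140420953-140420971, minus strand): ctGCCACCAGGtGGCaggt
γ constant exon 3 (chr5:140892066-140892084, minus strand): TGGCCACtAGGGGGCGCac
Downstream of γ, in DIAPH1 (chr5:140943958-140943976, minus strand): caGCCACCAGatGGCaCat

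The 2 α promoters at the head of these lines carry the same 19 letters. All 16 matches in promoters lay on the plus strand, the strand on which the genes are read (7 α, 8 β and 1 γ). Of the 8 matches in α variable exons, 7 lay on the plus strand and that of PCDHA2 scored best on the minus strand. The core of the PCDHA2 match reads the same on both strands, so its strand is uncertain. The 7 matches at the α–β sites, in the γ constant exon and downstream of γ all lay on the minus strand, so that promoters and distal sites faced each other. A match was found in 35 of 62 CTCF regions of the window, against 79.7% of the wild-type CTCF peaks outside chromosome 5 that were not used to learn the motif. Most of the regions without one were β and γ promoters, where 8 of 17 and 1 of 14 regions had a match. In windows of the same length centred 200 bp before the start codon, 30.2% of the 53 clustered protocadherin genes and 17.03% of other coding genes held a match.

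CTCF covered the cluster densely. In wild-type, ΔWAPL, ΔSCC4 and double-mutant cells, 56, 56, 46 and 56 CTCF peaks had their summit in the window, which is 65.9, 65.9, 54.1 and 65.9 peaks per Mb against 14.2, 15.1, 12.4 and 15.7 per Mb over the whole genome. No IgG peak fell in the window in any genotype. The ratio of CTCF peak numbers in ΔSCC4 to wild-type cells was 0.821 (95% interval 0.557 to 1.21) and that in the rest of the genome was 0.874 (0.862 to 0.886), and the first interval includes the second value. The peak lists had 6.53 to 8.41 reads per kb for CTCF and 6.79 to 8.41 for SMC1, a depth recovered from the peak caller's own values.

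CTCF sat within a narrow range before the start codons. Of 53 variable-exon promoters, taken as the 1 kb before the start codon, 35 had a CTCF peak in wild-type cells (66.04%, Wilson interval 52.6 to 77.3%), compared with 10.0% of 19638 other coding genes. The number was 34 without WAPL, 26 without SCC4 and 36 without both, beside 10.04%, 8.87% and 10.73% of the other coding genes. Other genes thus also had fewer promoters with CTCF in the ΔSCC4 list than in wild-type cells. By subcluster, wild-type cells had CTCF at 9 of 15 α, 14 of 16 β and 12 of 22 γ promoters, and ΔSCC4 cells at 7, 11 and 8. The summits lay between -285 and -161 bp from the start codon in α, between -296 and -218 bp in β and between -297 and -106 bp in γ. A further 8 CTCF regions lay inside α variable exons, 449 to 506 bp after the start codon, and no β or γ variable exon held one. Of the 53 promoters, 25 had a CTCF peak in all 4 lists and 14 had one in none. The 14 were those of PCDHA4, PCDHA5, PCDHA6, PCDHA13, PCDHAC2, PCDHB1, PCDHGA5, PCDHGA7, PCDHGA8, PCDHGB6, PCDHGA12, PCDHGC3, PCDHGC4 and PCDHGC5. The PCDHA4, PCDHA5 and PCDHA13 genes among them had the exonic peak alone.

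**Figure D1:**
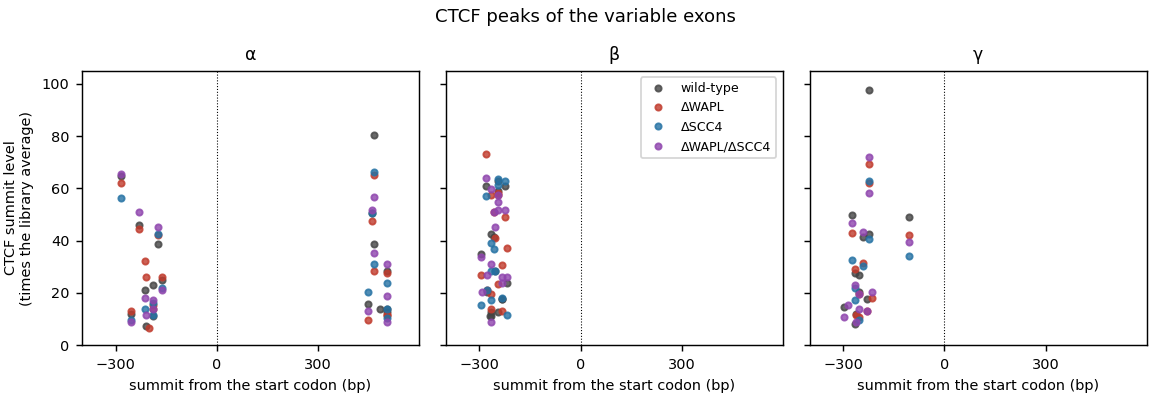
CTCF summit level (pileup at the summit divided by the library average) against the distance of the summit from the start codon in bp, for every promoter and variable-exon region of the α, β and γ subclusters, with 1 point per genotype. The position is that of the strongest summit of the region. The α points form 2 groups, before the start codon and about 449 to 506 bp after it, and the β and γ points form 1 group each.

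The level of a peak is given here as the number of reads piled up at its summit divided by the genome-wide average pileup of the same library, which makes libraries of unequal depth comparable in scale but leaves enrichment efficiency uncorrected. In the α cluster the strongest promoter was that of PCDHAC1, one of the C-type genes, with CTCF levels of 64.6 in wild-type cells, 62.0 without WAPL, 56.3 without SCC4 and 65.6 without both. These 4 values lie within each other's counting intervals. The PCDHA3 promoter had 38.7, 42.3, 42.5 and 45.1 in the same order. The PCDHA11 promoter had levels of 46.1 (50 reads), 44.5 (61 reads) and 50.8 (62 reads) in wild-type, ΔWAPL and double-mutant cells and no CTCF peak in ΔSCC4 cells, although the site in its variable exon was called in all 4 lists at 28.6, 27.7, 23.7 and 31.2.

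Among β promoters the coding genes with the highest CTCF levels in wild-type cells were PCDHB10, PCDHB9 and PCDHB3. In double-mutant cells PCDHB5 was the highest, at 59.9. PCDHB10 had levels of 62.7, 57.7, 63.7 and 57.4 in wild-type, ΔWAPL, ΔSCC4 and double-mutant cells. PCDHB9 had 60.9, 48.9, 62.9 and 51.7, and PCDHB3 had 59.03, 58.4, 61.2 and 54.9. All 3 were occupied at much the same level in every genotype. The pseudogene PCDHB18P was as strong as these, with 60.9, 73.0, 57.2 and 63.96. The PCDHB2 promoter was the β site that differed most, with 12.9 (14 reads) in wild-type, 23.4 (32 reads) in ΔWAPL and 51.7 (63 reads) in double-mutant cells and no peak in ΔSCC4 cells. Its level in double-mutant cells was 4.00 times that in wild-type cells, and their counting intervals (7.06 to 21.7 and 39.7 to 66.1) do not overlap.

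The strongest γ promoter, and the strongest promoter of the locus in wild-type cells, was that of PCDHGA10, with CTCF levels of 97.8, 69.3, 62.9 and 72.2. By the highest value over the 4 genotypes it was followed by PCDHGB2 with 42.4, 62.0, 40.8 and 58.2 and by PCDHGA1 with 49.8, 43.1, 32.7 and 46.7, whereas in wild-type cells PCDHGA1 and PCDHGA4 (48.9) lay above PCDHGB2. None of the 3 had a motif match past the threshold. The highest level of the window in wild-type cells, 99.6, lay outside the genes, in an intron of DIAPH1 downstream of γ. There 5 CTCF regions, present in all 4 lists, had wild-type levels of 72.9 to 99.6.

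CTCF levels were otherwise read against all regions of the genome. In ΔWAPL cells 7 of 52 regions of the window with a peak in both lists were at least 1.5-fold above wild-type and 6 were at least 1.5-fold below. The backgrounds were 4.84% and 16.3% of all CTCF regions with a peak in both lists. Of the 7, 4 were the promoters of PCDHB2, PCDHB11, PCDHB14 and PCDHB15. The median ratio to wild-type was 1.20 over 15 β promoter regions, 0.963 over 16 α regions, 0.865 over 10 γ promoter regions and 0.750 over the 8 distal regions, beside 0.829 over all CTCF regions. In double-mutant cells the medians were 1.23, 0.963, 0.805 and 0.833 in this order, beside 0.921 over all CTCF regions, with 5 of 53 regions at least 1.5-fold above wild-type (background 6.36%) and 2 as far below (7.14%). In ΔSCC4 cells 8 of 45 were at least 1.5-fold lower (22.4% of all regions with a peak in both lists were) and 3 at least 1.5-fold higher (1.06%). Of 57 regions with a peak in wild-type or ΔSCC4 cells, 11 had one in wild-type cells alone, where the background was 16%, and 1 in ΔSCC4 cells alone (3.84%). The 11 comprised the promoters of PCDHA11, PCDHA12, PCDHB2, PCDHB4, PCDHB14, PCDHGA3, PCDHGA6, PCDHGB4 and PCDHGA9, the variable exon of PCDHA12, and a site in TAF7. Against wild-type cells, 4 of 60 regions were called in ΔWAPL cells alone (12.8%) and 4 in wild-type cells alone (7.28%), and for double-mutant cells it was 3 of 59 (14.9%) and 3 (5.75%).

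**Figure D2:**
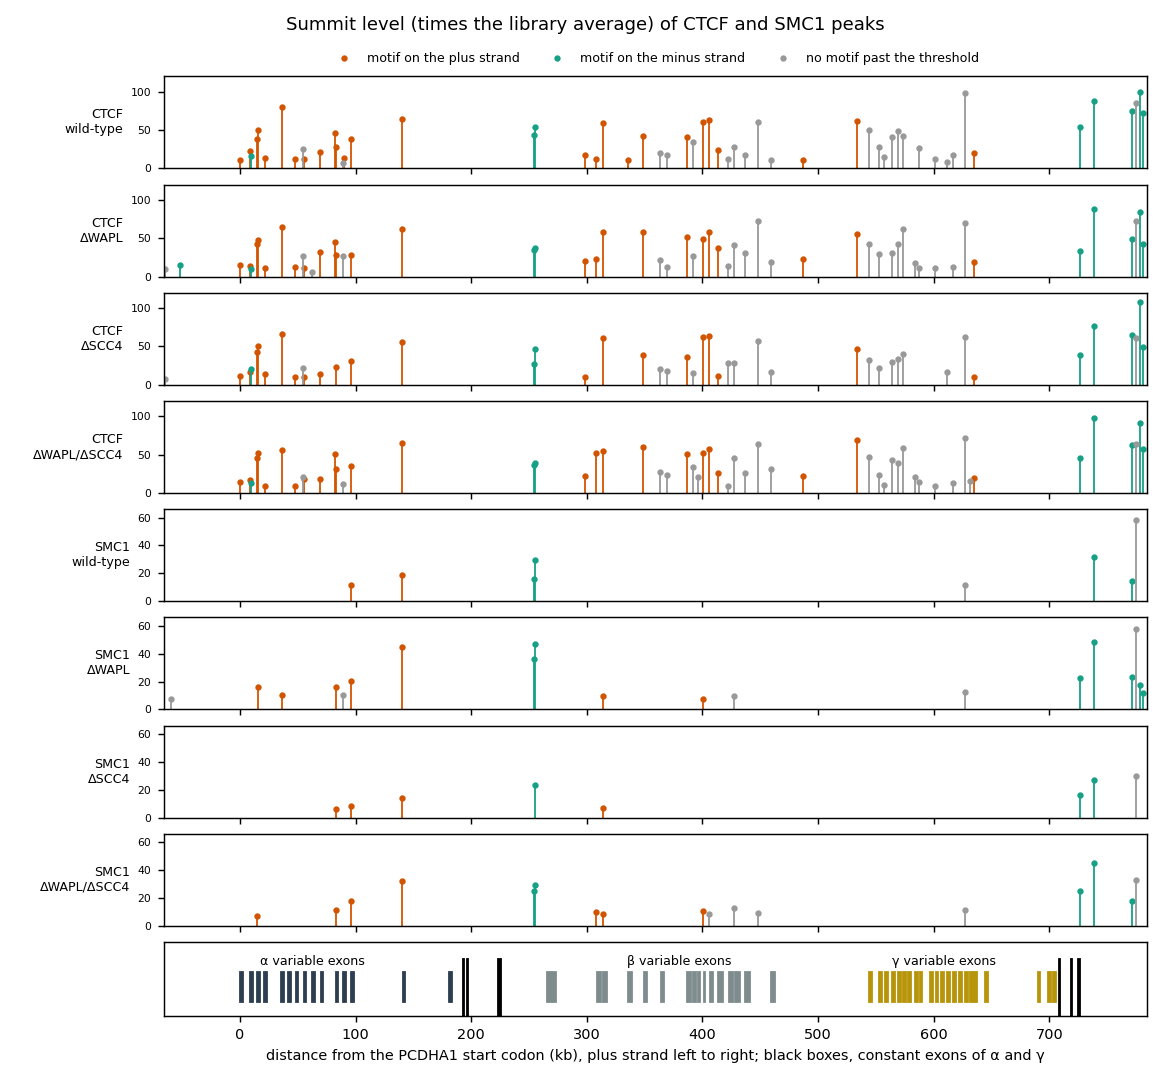
Summit level of each CTCF (upper 4 rows) and SMC1 (lower 4 rows) peak region, in times the library average, against the distance in kb from the start codon of PCDHA1, with the variable exons and constant exons drawn at the bottom. Colours give the strand of the CTCF motif. CTCF is dense over all 3 sets of variable exons, where the matches are nearly all on the plus strand and few lie in γ, while SMC1 stands at few of these sites and at the minus-strand sites between α and β and right of γ.

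SMC1 was far sparser than CTCF. The window held 8 SMC1 peaks in wild-type cells, 19 without WAPL, 8 without SCC4 and 18 without both. The ratio to wild-type was 2.38 (95% interval 1.06 to 5.31) without WAPL, 1.00 (0.389 to 2.57) without SCC4 and 2.25 (1.00 to 5.06) without both. In the rest of the genome the ratios were 1.83, 0.689 and 1.43, and each of these values lies inside the interval of the window. These ratios hold for the deposited lists. Those contain fewer SMC1 peaks for ΔWAPL and more for ΔSCC4 cells than the study reports. When every SMC1 list was cut to as many of its strongest peaks as the shortest list had, the ratio in ΔWAPL cells was 1.14 and that in double-mutant cells 1.29, so most of the excess peaks ranked below this limit. The cut makes the lists equally long and so removes a genome-wide excess by design. With −log10 q of at least 10, the ratios were 2.00 (0.716 to 5.59) and 1.80 (0.633 to 5.12). Nearly all SMC1 peaks stood at a CTCF peak of the same genotype, namely 8 of 8, 18 of 19, 8 of 8 and 18 of 18. In the rest of the genome the shares were 94.5%, 81.6%, 95.2% and 93.5%, each inside the interval of the window. The exception was an SMC1 peak in ΔWAPL cells at VTRNA1-3, a vault RNA gene left of the α cluster, with a level of 7.53.

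Conversely, few CTCF peaks of the window carried SMC1. The share was 14.3% in wild-type (8 of 56, Wilson interval 7.42 to 25.7%), 33.9% without WAPL (19 of 56, 22.9 to 47.0%), 17.4% without SCC4 (8 of 46, 9.09 to 30.7%) and 32.1% without both (18 of 56, 21.4 to 45.2%). In the rest of the genome it was 40.7%, 60.8%, 32.4% and 52.3%, above the upper bound of the window in each genotype. With equal numbers of the strongest peaks in every list, the window had shares of 12.96% in wild-type, 15.7% in ΔWAPL and 19.1% in double-mutant cells. This cut makes the SMC1 lists equally long, so it removes by design much of any genome-wide rise. With −log10 q of at least 10, the shares were 11.9%, 22% and 19.6%. Both settings gave a smaller rise than the full lists. The gap was also present among strong CTCF peaks. In the top tertile of each CTCF list by level, SMC1 stood at 6 of 16 peaks of the window in wild-type cells (37.5%, 18.5 to 61.4%), against 79.6% elsewhere, and at 13 of 22 (59.1%, 38.7 to 76.7%) against 92.8% in ΔWAPL cells. The corresponding values were 5 of 15 (33.3%, 15.2 to 58.3%) against 64.4% in ΔSCC4 cells and 14 of 24 (58.3%, 38.8 to 75.5%) against 89.8% in double-mutant cells. The peaks of the window in this tertile had CTCF levels close to those elsewhere, with a median of 63.6 against 70.1 in wild-type cells and of 56.6 against 54.0 in ΔWAPL cells. Part of this tertile had another CTCF peak within 5 kb. There, SMC1 stood at 6 of 9 (35.4 to 87.9%) against 91.5% in ΔWAPL cells. Double-mutant cells had it at 6 of 11 (28.0 to 78.7%) against 85.15%. Wild-type cells had 3 of 6 (18.8 to 81.2%) against 73.25%, and ΔSCC4 cells 2 of 6 (9.68 to 70.0%) against 55.0%. For wild-type and ΔSCC4 cells the value elsewhere lies inside the interval of the window. The weakest peaks of the SMC1 lists had levels of 5.02 to 5.38, so SMC1 below about this level would not be listed. Where the local background is raised, the limit is higher. At the site 51.36 kb downstream of γ, the background in ΔWAPL cells was 3.63 times the library average. A level of 17.6 there was a fold enrichment of only 4.28.

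SMC1 was rarer at the genes than at the distal sites. Over promoters and variable exons, SMC1 stood at 3 of 45 CTCF peaks in wild-type (6.67%, 2.29 to 17.9%), 11 of 43 without WAPL (25.6%, 14.9 to 40.2%), 4 of 35 without SCC4 (11.4%, 4.54 to 26.0%) and 12 of 45 without both (26.7%, 15.96 to 41.0%). Over the 8 distal regions, which are the α–β sites, the γ constant exon and the 5 regions downstream of γ, it stood at 5, 8, 4 and 6. The intervals of genes and distal regions are apart in wild-type and ΔWAPL cells and overlap in the other two genotypes. CTCF itself was weaker at the genes, with median levels of 24.9, 28.5, 28.6 and 27.1 in the same order. At the distal regions the medians were 73.8, 46.0, 54.7 and 59.9. Whether the difference in SMC1 goes beyond that in CTCF level was not tested. At the remaining CTCF peaks of the window, outside both sets, it stood at 0 of 3, 0 of 5, 0 of 3 and 0 of 3. In the rest of the genome, CTCF peaks in the 1 kb before a start codon carried SMC1 in 48.6%, 83.2%, 41.2% and 60.7% of cases. Such peaks of the window, without the variable exons, carried it in 2 of 36, 7 of 35, 2 of 27 and 9 of 37 cases. For promoter peaks of the top tertile the ΔWAPL values were 6 of 14 in the window (42.9%, 21.4 to 67.4%) and 98.04% elsewhere. In the double-mutant cells they were 9 of 15 (60%, 35.8 to 80.2%) and 87.2%. Wild-type cells had 2 of 6 (9.68 to 70.0%) against 79.3%, and ΔSCC4 cells 2 of 6 against 64.6%, which lies inside the interval. These promoter peaks were not matched in CTCF level. Their medians in the window were 62.3, 53.3, 62.1 and 51.7 in wild-type, ΔWAPL, ΔSCC4 and double-mutant cells. Elsewhere the medians were higher, at 79.3, 59.85, 67.0 and 69.7. Top-tertile peaks away from promoters also fell short in wild-type cells, with 4 of 10 (upper bound 68.7%) against 79.6%, and in double-mutant cells, with 5 of 9 (upper bound 81.1%) against 89.9%. They did not differ beyond counting error in ΔWAPL cells (7 of 8 against 92.6%) or ΔSCC4 cells (3 of 9 against 64.4%). Away from promoters at any CTCF level, SMC1 stood at 6 of 20, 12 of 21, 6 of 19 and 9 of 19 peaks of the window. The values elsewhere were 40.35%, 59.8%, 31.9% and 51.9%, each inside the interval of the window.

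In wild-type cells SMC1 was called at PCDHA13 and PCDHAC1 alone among the α genes, both toward the 3′ end of the array. PCDHAC1, whose promoter is the last but one of the α cluster, had an SMC1 level of 19.02 (30 reads, interval 12.8 to 27.2) in wild-type, 44.6 (71 reads, 34.8 to 56.2) without WAPL, 14.3 (24 reads, 9.19 to 21.3) without SCC4 and 31.8 (49 reads, 23.5 to 42) without both. It was the single variable-exon promoter with SMC1 in all 4 lists. Its level in ΔWAPL cells was 2.34 times that in wild-type cells and the intervals do not overlap, while that in ΔSCC4 cells was 0.754 times wild-type with overlapping intervals. The exonic site of PCDHA13 had 11.4, 20.1, 8.37 and 17.5 in the same order, and all its intervals overlap.

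SMC1 at the remaining α genes was found in the mutants alone. The exonic site of PCDHA11 had a level of 16.3 without WAPL, 5.98 without SCC4 and 9.73 without both, as part of a region that also covered its promoter, where double-mutant cells had a summit of 11.7. ΔWAPL cells alone had peaks in the variable exons of PCDHA3 and PCDHA5, at 16.3 and 10.0, and at the PCDHA12 promoter, at 10.7. Double-mutant cells alone also had one at the PCDHA3 promoter, at 7.13 (11 reads). These are weak peaks of at most 26 reads. At PCDHA12 the CTCF level was also highest in ΔWAPL cells, with 7.38, 26.3 and 11.5 in wild-type, ΔWAPL and double-mutant cells and no peak in ΔSCC4 cells.

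No β promoter had an SMC1 peak in wild-type cells, where 14 of the 16 had CTCF. ΔWAPL cells had SMC1 at PCDHB3 (9.41), PCDHB9 (7.53) and PCDHB13 (9.41). ΔSCC4 cells had it at PCDHB3 alone (7.17, 12 reads). Double-mutant cells had it at PCDHB2 (9.73), PCDHB3 (8.43), PCDHB9 (10.4), PCDHB10 (8.43) and PCDHB13 (12.97), and at the pseudogene PCDHB18P (9.08). β promoters, pseudogenes included, thus held 6 SMC1 peaks in double-mutant and 3 in ΔWAPL cells, numbers that do not differ beyond counting error, whereas in the rest of the genome the double-mutant list had 0.782 times the SMC1 peaks of the ΔWAPL list. Over all 53 variable promoters the numbers with SMC1 were 2, 6, 2 and 9 in wild-type, ΔWAPL, ΔSCC4 and double-mutant cells (3.77%, 11.3%, 3.77% and 16.98%), beside 6.44%, 18.1%, 4.51% and 9.30% of other coding genes. The Wilson interval in double-mutant cells, 9.20 to 29.2%, includes the value of other genes. The counts of 6 and 9 fell to 1 and 2 both with −log10 q of at least 10 and with equal numbers of the strongest peaks. The excess over wild-type cells thus rests on weak peaks. The cut to equal numbers removes a genome-wide excess by design, and neither fall was set beside that of other coding genes. At PCDHB13 the interpretation is limited by sequence, since 33.8% of the 65-base words around the SMC1 summit occur elsewhere in the genome and reads of 65 bases cannot be placed there with certainty.

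The γ promoters held SMC1 at PCDHGA10 alone, at 11.4 in wild-type, 12.6 in ΔWAPL and 11.02 in double-mutant cells, and without a peak in ΔSCC4 cells. These 3 values rest on 17 to 20 reads and do not differ beyond counting error. PCDHGA10 was also the γ promoter with the highest CTCF level. All other 21 γ promoters lacked an SMC1 peak in every genotype.

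**Figure D3:**
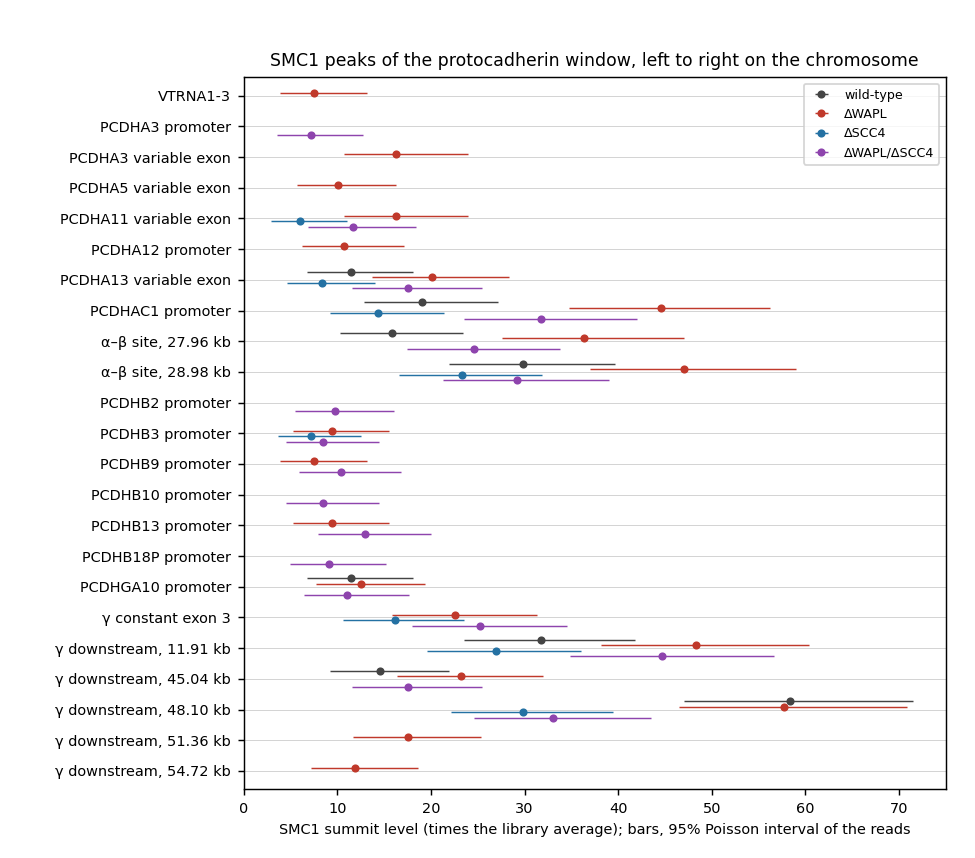
SMC1 summit level, in times the library average, at each of the 23 SMC1 regions of the window from left to right on the chromosome, with the 95% Poisson interval of the reads. No point is drawn where a list had no peak, and the double-mutant point of PCDHA11 is its promoter summit. Distances in kb are from the end of the α genes for the α–β sites and from the end of the γ genes for the downstream sites. The sites with the highest levels are PCDHAC1, the α–β pair and the downstream sites at 11.91 and 48.1 kb.

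The highest SMC1 level of each list lay at a distal site. The pair between α and β lies 27.96 and 28.98 kb right of the α genes (chr5:140419658-140420342 and chr5:140420637-140421214), in the interval of HS5-1. The left site had SMC1 levels of 15.9, 36.4 and 24.6 in wild-type, ΔWAPL and double-mutant cells and no peak in ΔSCC4 cells, and its CTCF levels were 43.3, 34.3, 27.8 and 36.1. The right site had SMC1 in all 4 lists, at 29.8, 47.1, 23.3 and 29.2, with CTCF at 53.5, 38.0, 47.4 and 39.4. At the left site the ΔWAPL interval (27.6 to 47.1) lies above that of wild-type cells (10.3 to 23.4). The CTCF intervals of these genotypes overlap at both sites, and so do the SMC1 intervals at the right site. Over all regions of the genome the median ratio of ΔWAPL to wild-type cells was 1.61 for SMC1 and 0.829 for CTCF.

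The last constant exon of γ, which is shared by all 22 γ genes (SMC1 region chr5:140891856-140892304), had a CTCF peak in all 4 lists, at 53.5, 32.8, 38.4 and 45.9, but an SMC1 peak only in the 3 mutants, at 22.6 without WAPL, 16.1 without SCC4 and 25.3 without both. These peaks rest on 27 to 39 reads, and ΔSCC4 cells had one here although their SMC1 list was the shortest. No α constant exon had a peak of either antibody.

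Downstream of γ, within introns of DIAPH1, the site at 11.91 kb (chr5:140904241-140904743) had SMC1 levels of 31.7, 48.3, 26.9 and 44.7 in wild-type, ΔWAPL, ΔSCC4 and double-mutant cells. The site at 48.1 kb (chr5:140940360-140940903) went another way, with 58.3 (92 reads), 57.7 (92 reads), 29.9 (50 reads) and 33.1 (51 reads), so that both genotypes without SCC4 lay below both genotypes with it and their intervals (22.2 to 39.4 and 24.6 to 43.5 against 47.0 to 71.5 and 46.5 to 70.8) do not overlap. Its ratio to wild-type was 0.512 without SCC4 and 0.567 without both, while the CTCF level there was 85.8, 73.0, 60.4 and 63.96. This was the strongest SMC1 site of the window in wild-type cells and the one distal site without a CTCF motif match past the threshold. Its local SMC1 background also differed, at 3.54, 4.37, 2.37 and 2.66 times the library average. Fold enrichment over that background was 14.1, 11.7, 10.3 and 10.2. By that measure ΔWAPL cells lay close to both genotypes without SCC4, so the split depends on the measure. The site at 45.04 kb (chr5:140937415-140937773) had 14.6, 23.2 and 17.5 in wild-type, ΔWAPL and double-mutant cells and no peak in ΔSCC4 cells. The sites at 51.36 and 54.72 kb had SMC1 in ΔWAPL cells alone, at 17.6 and 11.9, although CTCF was present in every list, at 99.6, 83.9, 108 and 91.8 for the first.

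Over the 5 SMC1 regions with a peak in all 4 lists, the median ratio to wild-type was 1.58 (range 0.990 to 2.34) without WAPL, 0.754 (0.512 to 0.848) without SCC4 and 1.41 (0.567 to 1.67) without both. Of the 8 regions with a peak in both wild-type and ΔWAPL cells, 6 were at least 1.5-fold higher in ΔWAPL cells and 0 were as much lower. The backgrounds, here over all SMC1 regions of the genome with a peak in both lists, were 56.8% and 1.09%. In double-mutant cells 3 of 8 were higher, with a background of 29.7%, and 1 lower (2.43%). In ΔSCC4 cells 1 of 5 was at least 1.5-fold lower, against 24.5%, and 0 higher (1.89%). Of 19 regions called in wild-type or ΔWAPL cells, 11 were called in ΔWAPL cells alone (background 47.3%) and 0 in wild-type cells alone (3.29%). For double-mutant against wild-type cells, 9 of 17 were called in the former alone (34.9%) and 0 in the latter alone (6.57%). Between wild-type and ΔSCC4 cells, 3 of 11 regions were in each list alone, where the backgrounds were 36.5% for wild-type and 7.99% for ΔSCC4. These counts are small and each contrast shares its wild-type library with the others.

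As a comparison within the family, 12 protocadherin genes outside the clusters were counted by peaks within 1 kb of a transcript start. CTCF was found at 5 of the 12 in each genotype. SMC1 was found at 6 in wild-type, 10 without WAPL, 3 without SCC4 and 7 without both. This count spans both sides of several transcript starts per gene, so it is not comparable with the count before the start codons of the clustered genes.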

How the data were processed

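The authors mapped single-end 65-base reads to hg19 with Bowtie2 and called peaks per library with MACS2 (version 2.1.1 in the submitters' processing notes). The deposited lists give fold enrichment, a ratio of summit pileup to local background with 1 added to each, and −log10 p and −log10 q values. The study's methods name IgG as the control, but the backgrounds recovered from the deposited fold enrichment and −log10 p equalled whole numbers of the library's own reads in 10 kb for 100% of the peaks tested, so closely spaced peaks raise their own background. The whole-number pileup was recovered for at least 99.9% of the peaks of each list and divided by the library average. The recovery and the motif search were tested on simulated data.

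Genes came from GENCODE version 44 mapped to GRCh37, whose chromosome names and lengths fit the peaks. Peaks were in the window by summit, overlaps were of at least 1 bp, and regions were lists merged per antibody. Named sites were all distal sites and promoters with SMC1, and per subcluster the 3 promoters of highest CTCF level. The variable exons with SMC1, the other sites named for a changed CTCF level and the lists of promoters without CTCF were chosen after their values were seen. Members and lists were chosen with earlier results of these data known. Shares have 95% Wilson intervals, levels exact Poisson intervals. The lists have no replicates. Python 3.11.15, numpy 2.4.6, scipy 1.17.1, pandas 2.3.3 and pysam 0.24.0 were used.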

Additional observations from a re-analysis of the deposited data

Results flagged for a closer look

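Among 12 pairs of directions compared, 3 differed, in that the loss of 1 protein moved a value of the window one way in 1 background and the opposite way in the other. None of these differences was tested, since there was 1 library per group, and the counting intervals of the values compared overlap. Loss of SCC4 moved the share of CTCF peaks with SMC1 from 14.3% to 17.4% in cells with WAPL, but from 33.9% to 32.1% in cells without it. In the rest of the genome this share went from 40.7% to 32.4% and from 60.8% to 52.3%. Loss of WAPL moved the number of variable-exon promoters with CTCF from 35 to 34 in cells with SCC4 and from 26 to 36 in cells without it. Read the other way, loss of SCC4 moved it from 35 to 26 in the presence of WAPL and from 34 to 36 in its absence. Among 19638 other coding genes, loss of SCC4 moved the number with CTCF from 1966 to 1741 and from 1972 to 2108. This opposite pair was therefore not particular to the clustered genes. Loss of WAPL moved the number among other genes from 1966 to 1972 and from 1741 to 2108, upward in both backgrounds.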

How the results depend on the processing

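Of 182 values of the main measures recomputed under 11 alternative settings, 163 stayed within the counting interval, the range over regions or 1.5 times the count, 19 moved, and 0 reversed. Counts and shares could not be called reversed, and a ratio could only where its interval or range excluded 1. This held for the SMC1 peak ratios of ΔWAPL and double-mutant cells and the median SMC1 level ratio of ΔSCC4 cells. The absence of reversals therefore says little about the other values. SMC1 stood at 22% of CTCF peaks without WAPL and 19.6% without both (double-mutant cells) under −log10 q of at least 10, and under equal numbers of the strongest peaks 15.7% and 19.1%. The one SMC1 peak without CTCF in ΔWAPL cells was lost, giving 100%, under −log10 q of at least 10, fold enrichment of at least 5, equal numbers, and equal depth combined with −log10 p of at least 8. Promoters with SMC1 numbered 1 in wild-type, ΔWAPL and ΔSCC4 cells and 2 in double-mutant cells with −log10 q of at least 10, and 1 in ΔWAPL and 2 in double-mutant cells with equal numbers. In ΔSCC4 cells the number was also 1 with −log10 q of at least 5, fold enrichment of at least 5 or the setting that joins equal depth to that limit on p. A promoter of 2 kb with 500 bp of the exon gave 10 in ΔWAPL and 4 in ΔSCC4 cells. Thus the promoter counts of SMC1 rest on weak peaks. The cause of the other changes was not tested. No paired analysis was possible because each group held 1 library, and no replicate could be left out.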
